A study of Mus musculus with 27 samples.

Results

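Osteopontin (Spp1), galectin-3 (Lgals3) and 7 further genes known from macrophages of wounds and scars (Apoe, Lyz1, Lyz2, Trem2, Cd9, Gpnmb and Cd68) were followed in mouse tibialis anterior muscle after volumetric muscle loss (VML), the removal of more tissue than the muscle can replace. They were taken by gene symbol, 9 of the 54532 genes in the deposited table, and this list was chosen by measured levels in the same samples, so the differences of the 9 genes are given as a description. No p-value of a single one is given. Counts and names of those that passed a test, also under other settings, are part of the description only. All mice were C57BL/6 males of 8 weeks. The muscles came either from uninjured mice (n = 5) or from mice in which 40% of the muscle had been excised 3 days (n = 5), 7 days (n = 6), 14 days (n = 6) or 21 days (n = 5) before. The series describes the excision as done on 1 side and the methods of the study as done on both, so some samples may share a mouse. The errors below therefore measure the spread between samples only. Bulk RNA of whole muscle was sequenced. A macrophage gene can therefore be higher because more macrophages were present or because each held more of its RNA, and these cannot be told apart here.

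In injured tissue, monocytes that enter from the blood clear debris and mature into macrophages, some of which persist beside fibroblasts in scars of several organs. The macrophages named lipid-associated, disease-associated or scar-associated share a set of transcripts. Spp1 and Lgals3 encode secreted proteins, of which osteopontin binds integrins and CD44 and galectin-3 binds sugars on cell surfaces and matrix. Apoe encodes the lipid carrier apolipoprotein E, and Lyz1 and Lyz2 encode lysozymes that cut bacterial cell walls. Trem2 encodes a lipid-sensing receptor that signals through the adaptor TYROBP, Gpnmb a glycoprotein of the cell surface and endosomes, Cd68 a lysosomal glycoprotein used as a macrophage marker, and Cd9 a tetraspanin found on many cell types. RNA of a whole muscle does not show which cell made each transcript.

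The genes lie at 9 places of the GRCm38 annotation, whose coordinates matched those of the table for all 9. Spp1 (ENSMUSG00000029304) spans chr5:104435118-104441050 on the plus strand and Lgals3 (ENSMUSG00000050335) chr14:47367751-47386160 on the plus strand. Apoe (ENSMUSG00000002985) spans chr7:19696109-19699188 on the minus strand, Trem2 (ENSMUSG00000023992) chr17:48346401-48354147 on the plus strand and Cd68 (ENSMUSG00000018774) chr11:69664213-69666153 on the minus strand. Gpnmb (ENSMUSG00000029816) spans chr6:49036546-49070929 on the plus strand and Cd9 (ENSMUSG00000030342) chr6:125460266-125494791 on the minus strand. Lyz2 (ENSMUSG00000069516) at chr10:117277331-117282321 and Lyz1 (ENSMUSG00000069515) at chr10:117287797-117292868 are neighbours on the minus strand. The libraries did not keep the strand. Where Cd9 overlaps its antisense gene Gm28809 (3316 bases), reads of both genes cannot be told apart. Gm28809 was listed at 1.34 FPKM at most. Gm26728 also overlaps Cd9 on the other strand (368 bases), and Gm42793 overlaps Spp1 on the same strand (1252 bases). They were listed at 0.0615 and 0.245 FPKM at most.

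The lysozyme pair is similar in sequence, which bears on every value of Lyz1. Their transcripts of 1263 and 1316 bases were 91.95% identical, and their coding sequences of 444 bases each differed at 22 positions. The 90 coding bases that differ most, coding positions 43 to 132 in exon 1 (chr10:117292707-117292796 for Lyz1 and chr10:117282111-117282200 for Lyz2, minus strand, GENCODE transcripts), are printed with the 13 differing bases in capitals, since reads over such bases are what separates the genes.
Lyz1: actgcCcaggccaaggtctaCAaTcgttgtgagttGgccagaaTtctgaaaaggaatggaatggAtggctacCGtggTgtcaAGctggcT
Lyz2: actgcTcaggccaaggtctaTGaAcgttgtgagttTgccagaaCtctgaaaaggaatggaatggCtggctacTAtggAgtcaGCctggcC
Of all windows of 100 bases in the Lyz1 transcript, 2.062% also occurred in Lyz2, and of windows of 50 bases 16.06%. Of windows of 150 bases, 0% did. A read that lies wholly in a shared part matches both genes. How such reads were counted was not tested, so the split of the pair is uncertain.

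For 3 genes that were far higher at day 3 than in uninjured muscle, the 250 bases before the transcription start of RefSeq are printed 5′ to 3′ on the gene's strand (GRCm38.p6). Capitals mark GAGGAA, the core bound by the myeloid factor PU.1 (written TTCCTC where it lies on the other strand), and TGANTCA, the AP-1 motif.
Spp1, chr5:104434861-104435110, plus strand: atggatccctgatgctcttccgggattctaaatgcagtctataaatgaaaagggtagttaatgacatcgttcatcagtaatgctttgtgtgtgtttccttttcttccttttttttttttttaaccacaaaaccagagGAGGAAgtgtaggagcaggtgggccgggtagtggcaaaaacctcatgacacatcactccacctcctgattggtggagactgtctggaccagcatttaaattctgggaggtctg
Trem2, chr17:48346151-48346400, plus strand: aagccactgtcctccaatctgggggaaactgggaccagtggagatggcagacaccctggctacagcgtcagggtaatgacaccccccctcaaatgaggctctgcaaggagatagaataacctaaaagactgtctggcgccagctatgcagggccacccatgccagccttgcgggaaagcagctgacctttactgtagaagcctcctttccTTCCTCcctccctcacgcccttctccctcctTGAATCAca
Cd68, chr11:69666171-69666420, minus strand: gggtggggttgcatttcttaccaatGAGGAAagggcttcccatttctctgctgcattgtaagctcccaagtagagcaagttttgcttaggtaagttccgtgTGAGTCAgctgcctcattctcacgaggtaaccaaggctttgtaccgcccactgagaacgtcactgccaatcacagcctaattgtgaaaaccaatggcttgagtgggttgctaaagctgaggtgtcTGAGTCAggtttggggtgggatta
GAGGAA stood at position -113 from the start of Spp1, at -40 on the other strand of Trem2 and at -225 of Cd68, and TGANTCA at -9 of Trem2 and at -149 and -24 of Cd68. In windows of 250 bases before to 50 bases after the start, searched on both strands, 4 of the 9 genes held GAGGAA (Spp1, Apoe, Trem2 and Cd68) against 28.3% of the 32851 mouse windows. The counts were 3 of 9 for TGANTCA (Trem2, Gpnmb and Cd68) against 7.81%, and 0 of 9 for the E-box CACGTG against 7.15%. The printed genes each held a match in the 250 bases before the start. Lgals3, Lyz2 and Gpnmb, which were also far higher at day 3, held none there. Matches of the motifs did not overlap each other. The RefSeq start used for Lgals3 lies 6109 bases from the gene start of the table and may belong to another promoter. A match in these letters is no evidence of binding.

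The level of a gene is given in FPKM, fragments scaled to transcript length and to the size of the library, and differences between groups on the log2(FPKM + 1) scale with their standard error (SE). That scale understates the change of genes near 0. FPKM times gene length gave whole reads, 14376395 to 24436763 per sample. A gene was called where limma gave an adjusted p under 0.05, and all comparisons with uninjured muscle share the same 5 control samples. At day 3, 3417 of 14630 tested genes were called higher and 2899 lower. With each sample scaled to the same sum of FPKM (TPM), 6942 were called higher and 324 lower, with the median of all genes moved by 0.62 on the log2 scale, so differences of the size of that shift depend on the scaling.

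Some libraries lay nearer to another time point than to their own. By the distance over all tested genes to the mean of each group, 9 of the 27 samples were nearest to a group other than their label. Day 3 replicate 5 was nearest to day 7 and day 7 replicate 5 nearest to day 3. Values without both are given for the 9 genes at days 3 and 7 where they differ most, and for the counts of other genes that changed most. Both were picked by this distance, so leaving them out sets days 3 and 7 further apart by construction. The other samples nearest to another group were kept.

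Spp1 had the largest difference of all 14630 genes at day 3 on the log2(FPKM + 1) scale, a place that depends on this scale. With voom weights on the reads, Trem2 (7.91) and Gpnmb (7.69) had larger log2 differences than Spp1 reached in any alternative (7.33). It stood at 4.92, 2.68, 3.67, 0.296 and 0.995 FPKM in the uninjured muscles and at 394, 261, 629.6, 763 and 15.5 FPKM at day 3. At day 7 the 6 samples ran from 7.55 FPKM over a median of 25.6 to 493, and at day 14 from 2.55 over 5.07 to 13.5. The day 21 muscles held 1.04, 4.38, 1.77, 2.06 and 1.41 FPKM, all within the uninjured range. All samples of days 3 and 7 lay above the highest uninjured muscle, 3 of 6 did so at day 14 and 0 of 5 at day 21. The log2 difference from uninjured muscle was 6.31 (SE 0.86) at day 3, 3.52 (SE 0.82) at day 7, 1.12 (SE 0.82) at day 14 and -0.05 (SE 0.86) at day 21. Its sign at day 21 turned under other scalings, to 0.13 with TPM, and the 95% interval from -1.81 to 1.72 leaves room for changes of either sign. The 2 extreme samples were replicates 5, at 15.5 FPKM on day 3 and 493 on day 7. Without both, the difference was 7.28 (SE 0.46) at day 3 and 2.76 (SE 0.43) at day 7.

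Lgals3 lay above its uninjured range in every injured muscle up to day 21. Uninjured muscles held 1.66, 0.688, 2.06, 0.874 and 2.28 FPKM, from 20 to 62 reads each. The day 3 samples held 261, 156, 349.9, 382 and 45.5 FPKM, and the day 21 samples 25.2, 41.3, 16.2, 15.8 and 14.0. The lowest day 21 muscle thus lay above the highest uninjured muscle. Between them, day 7 ran from 12.9 FPKM over 41.1 to 300.4 and day 14 from 22.8 over 36.1 to 44.5. The differences were 6.30 (SE 0.59), 4.19 (SE 0.56), 3.83 (SE 0.56) and 3.16 (SE 0.59) at days 3, 7, 14 and 21, ranks 2, 3, 8 and 9 of all tested genes. Day 14 was 0.36 lower than day 7 with all samples (log2 difference -0.36, SE 0.53) and 0.19 (SE 0.345) higher without both replicates 5, so no order of these days was measured.

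**Figure D1:**
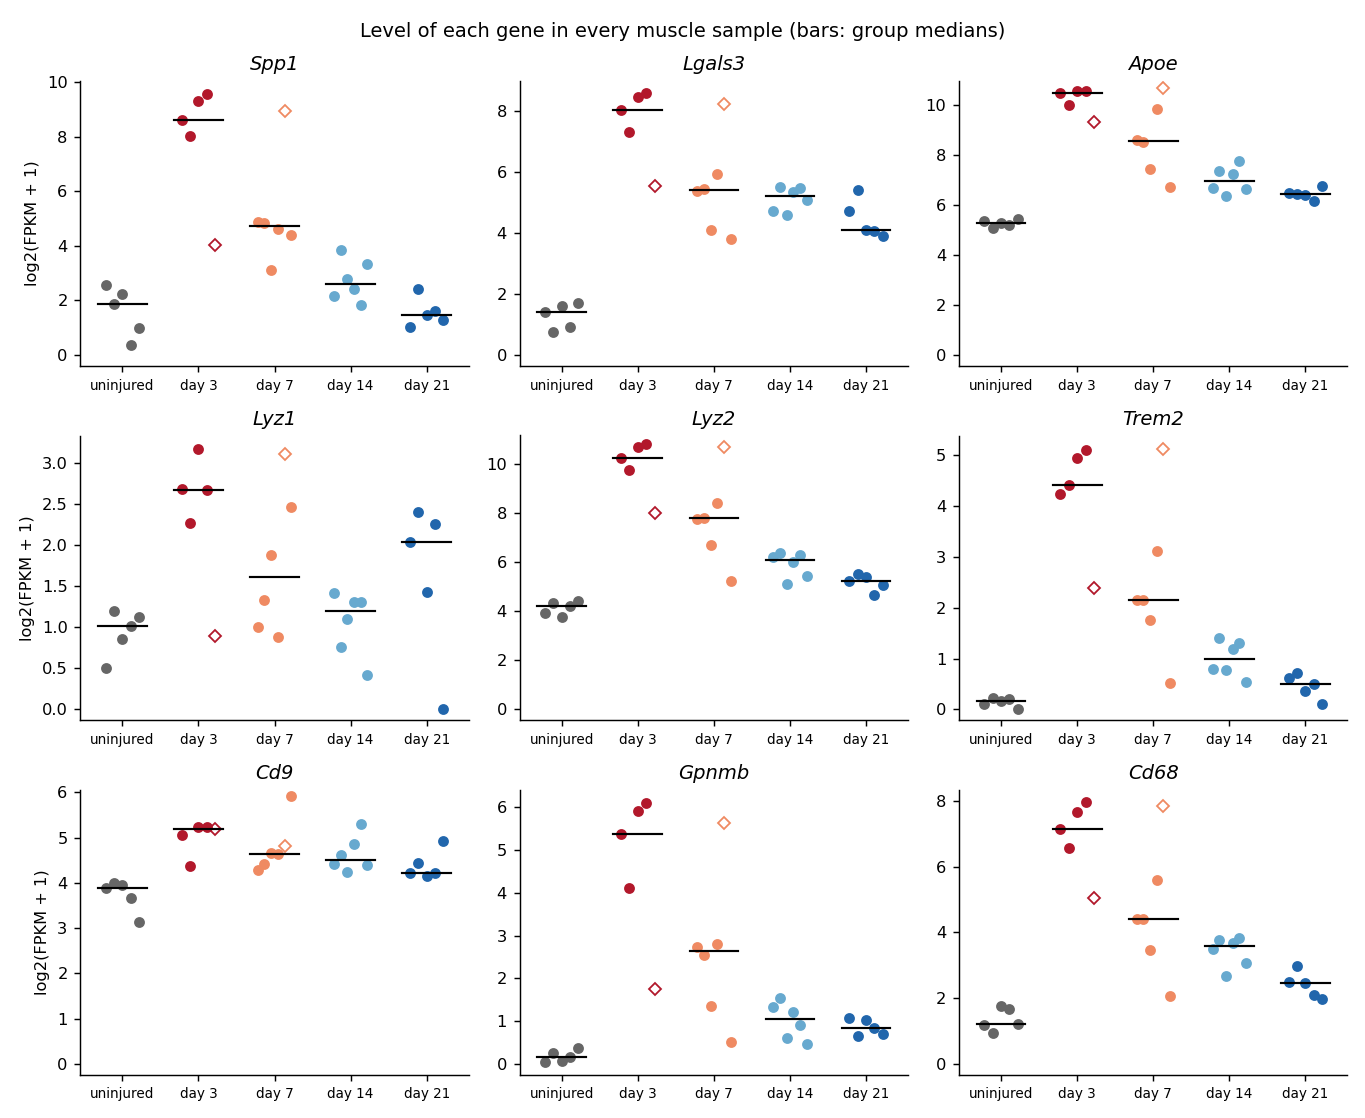
Level of each gene as log2(FPKM + 1) in every sample, by group, with group medians as bars. Open diamonds are replicates 5 of day 3 and day 7, which sit within the range of the rest of the other group for all genes but Apoe and Trem2, where day 7 replicate 5 lies above the other day 3 samples. Lgals3 stays well above the uninjured samples at day 21, and Spp1 does not.

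Apoe, the most abundant of the 9 in uninjured muscle, was present at 40.3, 32.5, 37.5, 35.4 and 41.9 FPKM before injury. It reached 1401, 1004, 1488, 1479 and 640.5 FPKM at day 3, and the day 21 muscles held 86.8, 86.0, 82.7, 69.8 and 108 FPKM. No injured muscle overlapped the uninjured ones, day 7 running from 104 FPKM over 374 to 1622 and day 14 from 80.7 over 125 to 215. Apoe differed by 4.90 (SE 0.47), 3.36 (SE 0.45), 1.74 (SE 0.45) and 1.18 (SE 0.47) at days 3, 7, 14 and 21. The uninjured level was 3.12% of the day 3 mean, against 0.61% for Spp1 and 0.63% for Lgals3.

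Lyz2, the lysozyme of macrophages and neutrophils, followed the same course from a lower start. It stood at 14.1, 19.25, 12.6, 17.6 and 20.7 FPKM in uninjured muscle and at 1212, 858, 1689, 1806 and 259 FPKM at day 3. The 6 samples ran from 36.7 over 220.5 to 1682 FPKM at day 7 and from 34.1 over 68.4 to 82.4 at day 14, and day 21 held 36.3, 45.5, 40.9, 24.3 and 32.5. The groups after injury did not overlap the uninjured one, and Lyz2 differed by 5.77 (SE 0.61), 3.64 (SE 0.59), 1.78 (SE 0.59) and 1.04 (SE 0.61). Its call at day 14 was lost when any of 9 samples was left out, one at a time, without a filter on low values and with quantile normalization.

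Lyz1, known from Paneth cells of the gut, was scarce. It stood at 0.416, 1.29, 0.810, 1.03 and 1.19 FPKM in uninjured muscle, 7 to 28 reads, and at 5.43, 3.82, 8.04, 5.35 and 0.856 FPKM at day 3. At day 21 it held 3.10, 4.28, 1.70 and 3.79 FPKM in 4 muscles and 0 reads in replicate 5, where a count of 0 allows up to 0.213 FPKM. Day 7 (0.84 to 7.66 FPKM, median 2.11) and day 14 (0.336 to 1.67 FPKM, median 1.31) overlapped the uninjured range. The differences were 1.40 (SE 0.43), 0.84 (SE 0.41), 0.11 (SE 0.41) and 0.69 (SE 0.43), and the sign at day 14 turned with quantile normalization, to -0.019. Its call at day 3 was lost without a filter on low values and with voom weights.

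The share of Lyz1 in the reads of both lysozymes had its lowest group median at day 3, where the total had its highest. It was 2.745% to 6.03% in uninjured muscle, 0.284% to 0.455% in all 5 samples of day 3 and 0.753% to 3.11% on day 14. The day 21 samples spread from 0% to 13.04%. Their median share (7.58%) and median total (870 reads) both lay above those of uninjured muscle (5.32% and 301 reads). Day 3 replicate 5, which held 7279 lysozyme reads against 18538 to 58908 in the other samples of its group, had a share of 0.316% (exact binomial 95% interval 0.2004% to 0.474%), within the range of the rest. Day 7 replicate 5 had 0.435% (0.39% to 0.484%) of 77456 reads, and day 7 replicate 6, with 673 lysozyme reads, had 10.55% (8.33% to 13.1%). The day 21 muscle without Lyz1 held 0 of 478 lysozyme reads, which allows a share of up to 0.628%. Intervals and limits cover counting error only. Among samples with any Lyz1 read, the lowest share was 0.238%, in day 7 replicate 4 (24 of 10101 reads). Misassigned Lyz2 reads would add to Lyz1 in proportion to Lyz2, and how far they did was not tested.

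**Figure D2:**
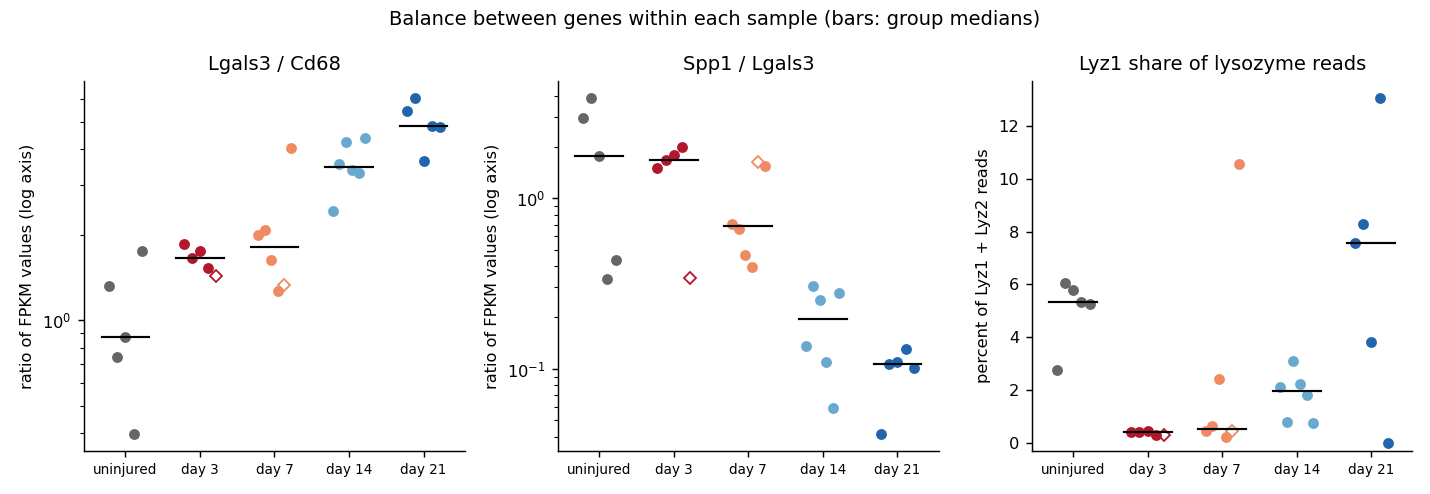
Ratio of Lgals3 to Cd68 and of Spp1 to Lgals3 (FPKM over FPKM, log axes) and Lyz1 as a percentage of the reads of both lysozymes, in every sample, with group medians as bars and replicates 5 of day 3 and day 7 as open diamonds. Median Lgals3/Cd68 goes from 0.87 to 4.82 between uninjured and day 21 muscle, median Spp1/Lgals3 from 1.78 to 0.106, and the Lyz1 share is under 0.5% in all day 3 samples.

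Trem2 and Gpnmb were close to absent before injury. Trem2 held 0.0759, 0.164, 0.121, 0.148 and 0 FPKM in the uninjured muscles (0 to 14 reads, where 0 reads allow up to 0.0414 FPKM) and 17.9, 20.4, 30.01, 33.2 and 4.26 FPKM at day 3. Day 7 ran from 0.438 over 3.44 to 34.1 FPKM and day 14 from 0.446 over 1.001 to 1.63, all above the uninjured muscles. At day 21 the muscles held 0.539, 0.638, 0.277, 0.417 and 0.0724 FPKM, 4 of 5 above the uninjured range. Trem2 differed by 4.08 (SE 0.52), 2.33 (SE 0.50), 0.86 (SE 0.50) and 0.32 (SE 0.52) on a scale that compresses such low levels. With voom weights on the reads, which work on log counts, the differences were 7.91, 5.92, 3.77 and 2.24 at days 3, 7, 14 and 21. Without both replicates 5 the day 14 difference was called too.

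Gpnmb stood at 0.0346, 0.187, 0.0393, 0.125 and 0.294 FPKM in uninjured muscle, 3 to 28 reads, and at 40.8, 16.5, 59.7, 67.9 and 2.36 FPKM at day 3. It ran from 0.419 over 5.22 to 48.3 FPKM at day 7 and from 0.391 over 1.09 to 1.92 at day 14, and held 1.11, 0.565, 1.03, 0.776 and 0.619 FPKM at day 21. All 22 injured muscles lay above all uninjured ones. The differences were 4.48 (SE 0.68), 2.41 (SE 0.65), 0.84 (SE 0.65) and 0.68 (SE 0.68), and 5.21 (SE 0.38) at day 3 without both replicates 5. This scale compresses such low levels. With voom weights on the reads the differences were 7.69, 5.33, 3.19 and 2.91 at days 3, 7, 14 and 21. The call of Gpnmb at day 7 was lost with voom weights. The day 3 samples spread more widely for Gpnmb than for Apoe, with a coefficient of variation of 74.4% against 30.9%, or 49.4% against 17.1% without replicate 5.

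Cd68 stood at 1.25, 0.924, 2.37, 2.20 and 1.30 FPKM in uninjured muscle and at 141, 94.4, 200.3, 251 and 31.7 FPKM at day 3. Day 7 ran from 3.19 over 20.2 to 226 FPKM and day 14 from 5.39 over 11.04 to 13.2, and day 21 held 4.62, 6.81, 4.46, 3.28 and 2.92. The injured groups did not overlap the uninjured one, although the lowest day 21 muscle (2.92 FPKM) lay close to the highest uninjured one (2.37). Cd68 differed by 5.53 (SE 0.65), 3.28 (SE 0.62), 2.07 (SE 0.62) and 1.04 (SE 0.65), of which the day 14 difference was not called without a filter on low values or with voom weights.

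Cd9 had the smallest difference of the 9 genes at day 3. Uninjured muscles already held 13.7, 15.04, 14.6, 11.7 and 7.79 FPKM, and day 3 muscles 32.1, 19.8, 36.6, 36.6 and 35.5. Day 7 ran from 18.5 over 24.04 to 59.2 FPKM, day 14 from 17.9 over 21.8 to 38.2, and day 21 held 17.7, 20.6, 16.7, 17.5 and 29.1. Every injured muscle lay above every uninjured one. The differences were 1.29 (SE 0.26), 1.06 (SE 0.24), 0.91 (SE 0.24) and 0.66 (SE 0.26). Unlike the other genes, Cd9 was neither lowest in day 3 replicate 5 (35.5 FPKM) nor highest in day 7 replicate 5 (27.3 FPKM), and its highest day 7 value was in replicate 6.

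**Figure D3:**
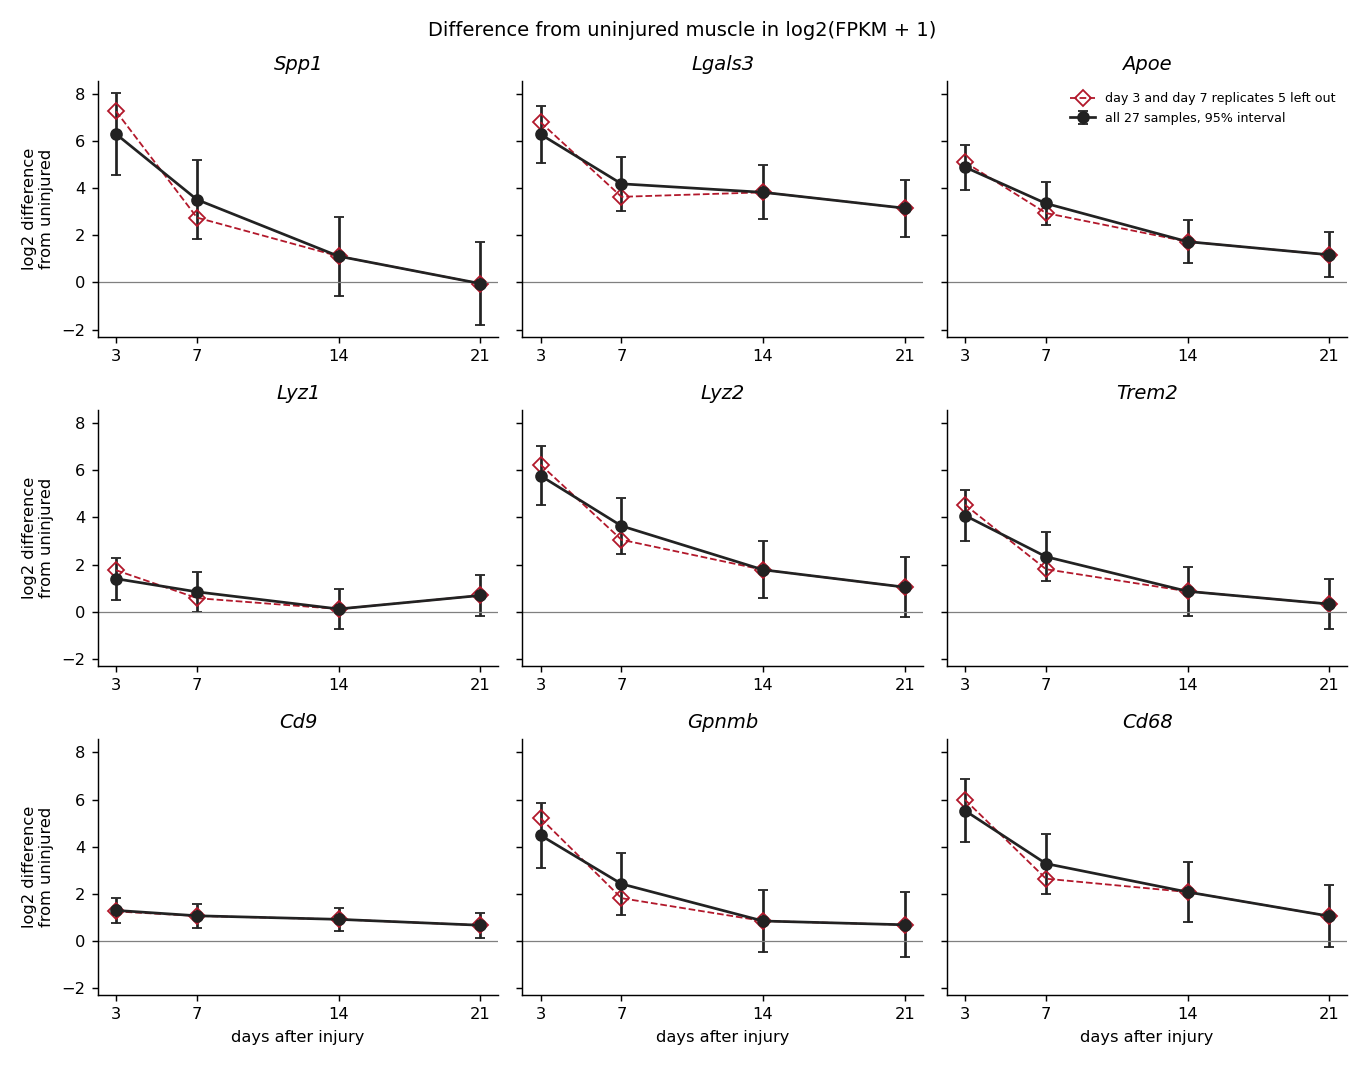
Log2 difference from uninjured muscle in log2(FPKM + 1) by day, with 95% intervals from the fit of all samples (black) and, as open diamonds, the differences without replicates 5 of day 3 and day 7. The interval of Lgals3 at day 21 is 1.96 to 4.36, and that of Spp1 is -1.81 to 1.72.

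Counted over the list, limma called 9 of 9 higher on day 3, where 23.4% of all tested genes were. The counts were 8 of 9 at day 7 (all but Lyz1, background 15%), 5 of 9 at day 14 (Lgals3, Apoe, Lyz2, Cd9 and Cd68, background 9.02%) and 1 of 9 at day 21 (Lgals3, background 1.74%, with 3 of 9 at an unadjusted p under 0.05). The day 21 count was 2 with a replicate block by sample letter, where 558 of 14630 tested genes were called higher. It was 5 when the fit held the 2 groups alone, where 757 of 14630 were. The genes whose samples all lay above all uninjured samples numbered 8, 8, 7 and 6 of 9 on days 3, 7, 14 and 21, where 19.8%, 7.25%, 7.67% and 5.26% of tested genes had no overlap. The median of the 9 log2 differences was 4.90, 3.28, 1.12 and 0.69 at days 3, 7, 14 and 21, where that of all tested genes was 0.012, 0.028, 0.02 and 0.014. Since the list was selected on these levels, nothing is read from these shares.

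Ordered by group median, 7 of the 9 genes ran from day 3 over days 7, 14 and 21 to uninjured muscle. For Spp1 the day 21 median lay below the uninjured one, and for Lyz1 the day 21 median ranked next to day 3. The ranges of neighbouring groups in these orders overlapped for each gene, except between day 21 and uninjured muscle for Lgals3, Apoe, Lyz2, Cd9, Gpnmb and Cd68.

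From one time point to the next, limma called 0 of the 9 genes at day 7 against day 3 with all samples (7 at an unadjusted p under 0.05, background 0.0478% called lower). The median difference was -2.07, from -2.79 for Spp1 to -0.23 for Cd9. Without both replicates 5, 8 of 9 were called lower (all but Cd9), where 11.9% of tested genes were. Both samples were picked as lying nearest to the other of these groups, so this rise is not read as a result. With either one left out alone the count was 7. For fits that left out 1 sample, here and below, the share of all tested genes called was not computed. Day 14 against day 7 gave 0 of 9 (5 at an unadjusted p under 0.05, background 0.219%), or 3 without day 7 replicate 6, and day 21 against day 14 gave 0 of 9 (0 at an unadjusted p under 0.05, background 0%). Spp1 and Cd68 had the most negative differences of that last step, at -1.16 (SE 0.82) and -1.02 (SE 0.62), neither called.

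The balance between the genes within a sample does not depend on the scaling between samples. Lgals3 over Cd68 had medians of 0.87, 1.65, 1.81, 3.465 and 4.82 in uninjured muscle and on days 3, 7, 14 and 21. The samples ranged from 0.398 to 1.75 without injury, from 1.43 to 1.85 on day 3 and from 1.27 to 4.03 on day 7. Those of day 14 lay between 2.43 and 4.385, and those of day 21 between 3.635 and 6.06. All day 21 samples lay above all day 3 samples. Spp1 over Lgals3 went the other way, from 0.341 to 1.999 at day 3 (median 1.68) to 0.0414 to 0.130 at day 21 (median 0.106), again without overlap, although uninjured muscle spanned 0.338 to 3.90. Spp1 over Cd68 was 0.489 to 3.14 at day 3 (2.79) and 0.226 to 0.642 at day 21 (0.484), which overlapped through day 3 replicate 5. Without it the day 3 samples lay between 2.77 and 3.14. Apoe over Lyz2 had medians of 2.03, 1.16, 1.70, 2.335 and 2.39 in uninjured muscle and at days 3, 7, 14 and 21, with overlapping ranges. Without both replicates 5, the day 3 samples lay between 0.819 and 1.17, below all uninjured muscles (1.69 to 2.97) and all samples of day 7 (1.62 to 2.84).

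The genes with the most similar course were found by the root mean square difference of the 4 log2 differences from uninjured muscle, over all tested genes outside the list. For Lgals3 they were Mymk, encoding the myoblast fusion protein myomaker (0.54 log2 units away), Myog, encoding the muscle regulator myogenin (0.65), and Ccl8 (0.92). They lay further off than the nearest genes of the rest of the list except Spp1. Mymk differed by 5.77, 3.28, 3.63 and 3.00 at days 3, 7, 14 and 21. For Apoe they were the macrophage genes Mpeg1 (0.17), C1qa (0.19) and C1qc (0.205), and for Cd68 Fcer1g (0.22), Tyrobp (0.28) and C1qa (0.34). For Lyz2 they were the lysosomal protease gene Ctss (0.29), Fcer1g (0.39) and Wfdc17 (0.40), and for Spp1, less closely, Ctss (0.77), C1qb (0.80) and Tyrobp (0.84). Trem2 was nearest to Ccl7 (0.079), Hmox1 (0.13) and Aif1 (0.19), and Gpnmb to Ms4a6d (0.075), Laptm5 (0.14) and Fcgr3 (0.197). Cd9 was nearest to Cdr2l (0.053), Erf (0.060) and Trim47 (0.061), and Lyz1 to Vkorc1 (0.052) and Mir6955 (0.11).

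The partners of these proteins and markers of the cells a muscle holds were taken from 19 lists of 145 other genes, of which 119 passed the filter of 0.5 FPKM in at least 5 samples. Of these, limma called 82 higher and 8 lower at day 3, 71 and 7 at day 7, 29 and 7 at day 14, and 4 and 3 at day 21. None was called at day 7 against day 3 with all samples (69 at an unadjusted p under 0.05), and 6 were called higher and 69 lower without both replicates 5. With TPM scaling 0 of the 119 were called in either direction at day 21, so each day 21 call of such a gene named here was lost under it.

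Osteopontin receptors were called higher for 6 of 8 tested genes at day 3 and at day 7, 4 at day 14 and 0 at day 21. On day 7 the count was 4 without both replicates 5. Cd44, encoding the hyaluronan receptor that osteopontin also binds, led at day 3 with a difference of 2.24 (SE 0.26, adjusted p = 7.8e-07) and stood at 0.47 (SE 0.26, adjusted p = 0.32) at day 21. The integrin gene Itga5 differed by 1.79 (SE 0.26, adjusted p = 1.1e-05) at day 3 and 0.72 (SE 0.26, adjusted p = 0.12) at day 21, and Itgb5 was the lowest of the list at both times, at 0.18 (SE 0.23) and -0.47 (SE 0.23), not called. The 4 other genes of the family of osteopontin (Ibsp, Dmp1, Dspp and Mepe) did not pass the filter, 3 of them under 0.5 FPKM in every sample and Ibsp at 2.83 FPKM in 1 uninjured muscle.

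Among galectins and their partner, 3 of 5 tested genes were called higher at day 3 and day 7, 2 at day 14 and 0 at day 21. On day 7 only Lgals1 was called without both replicates 5. Lgals3bp, encoding a secreted protein that binds galectin-3, differed by 2.02 (SE 0.34, adjusted p = 4.8e-05) at day 3 and -0.21 (SE 0.34, adjusted p = 0.77) at day 21. Lgals1, encoding galectin-1, was far more abundant than Lgals3 in uninjured muscle at a median of 314.5 FPKM and the highest of the list at day 21, at 0.51 (SE 0.28, adjusted p = 0.33). Lgals4 was the lowest at day 3, at -0.43 (SE 0.30), not called.

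The adaptors and signalling proteins of TREM2 gave 7, 6, 2 and 0 genes called higher, of 7, on days 3, 7, 14 and 21, and without both replicates 5 the day 14 count was 4. Tyrobp, encoding the adaptor itself, differed by 5.13 (SE 0.58, adjusted p = 5.6e-07) at day 3 and 0.92 (SE 0.58, adjusted p = 0.39) at day 21, and was the highest of the list at both. The smallest were Plcg2 at day 3, with 1.47 (SE 0.27, adjusted p = 0.00015), and Inpp5d at day 21, with 0.10 (SE 0.29). Of the other receptors of the TREM family, Treml4 passed the filter and was called at day 3 at 0.73 (SE 0.14, adjusted p = 0.00028), and the other 4 stayed under 1 FPKM in every sample. At day 21 Treml4 stood at -0.05 (SE 0.14).

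Of the genes that accompany Trem2, Gpnmb and Spp1 in lipid-associated macrophages, 11, 10, 4 and 0 of 12 tested passed as higher on days 3, 7, 14 and 21. Ms4a7 led at day 3 with 3.63 (SE 0.44, adjusted p = 1.3e-06) and Pld3, encoding a lysosomal nuclease, at day 21 with 0.73 (SE 0.33, adjusted p = 0.22). Syngr1, which encodes a synaptic vesicle protein, was the lowest at both, at -0.31 (SE 0.25) and -0.54 (SE 0.25), and was called lower at day 14.

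Lipid handling around apolipoprotein E was divided. At day 3, 8 of 16 tested genes were called higher, led by the lysosomal lipase gene Lipa at 2.48 (SE 0.38, adjusted p = 1.9e-05), and 2 lower, Cd36 and Lpl, both of which muscle fibres and endothelium also use for fatty acid uptake. Lpl stood at -1.27 (SE 0.265, adjusted p = 0.00042). At day 21, 0 were called higher and 2 lower, Cd36 at -0.91 (SE 0.18, adjusted p = 0.0059) and Npc1 at -0.74 (SE 0.20, adjusted p = 0.037), and the highest was Abca1 at 0.58 (SE 0.23, adjusted p = 0.17).

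Lysosome genes, with the transcription factors that drive them, gave 11 higher and 1 lower of 15 at day 3, 7 and 1 at day 7, 3 and 1 at day 14, and 0 and 0 at day 21. Ctss led with 6.26 (SE 0.67, adjusted p = 2.9e-07) at day 3 and 1.31 (SE 0.67, adjusted p = 0.28) at day 21. Tfeb, encoding a transcription factor of lysosome genes, was the one called lower at day 3, at -0.43 (SE 0.15, adjusted p = 0.023), a size that scaling can move. Lamp1 was the lowest at day 21, at -0.69 (SE 0.24, adjusted p = 0.10), and was called lower then without both replicates 5.

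Osteoclast and giant cell genes were called higher for 3 of 5 tested at days 3 and 7, 1 at day 14 and 0 at day 21. With both replicates 5 left out the count was 2 on day 7 and 2 on day 14. Acp5, encoding tartrate-resistant acid phosphatase, led at day 3 with 3.21 (SE 0.40, adjusted p = 1.9e-06) and Ctsk, encoding cathepsin K, at day 21 with 1.02 (SE 0.33, adjusted p = 0.079). Nfatc1 was the lowest at day 3 at -0.25 (SE 0.11) and Mmp9 at day 21 at -0.27 (SE 0.34). Dcstamp, encoding the fusion protein of osteoclasts, stayed under 0.5 FPKM in every sample.

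Other tetraspanins beside Cd9 gave 5, 4, 2 and 1 genes called higher, of 7, on those days. Cd53, known from leukocytes, led at day 3 with 3.43 (SE 0.45, adjusted p = 2.9e-06), and Tspan4 was called at day 21 with 1.23 (SE 0.24, adjusted p = 0.0056), though not with TPM scaling. Without both replicates 5, Cd82 was called at day 21 as well. The lowest were Tspan3 at day 3, at -0.23 (SE 0.15), and Cd151 at day 21, at 0.0029 (SE 0.15).

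**Figure D4:**
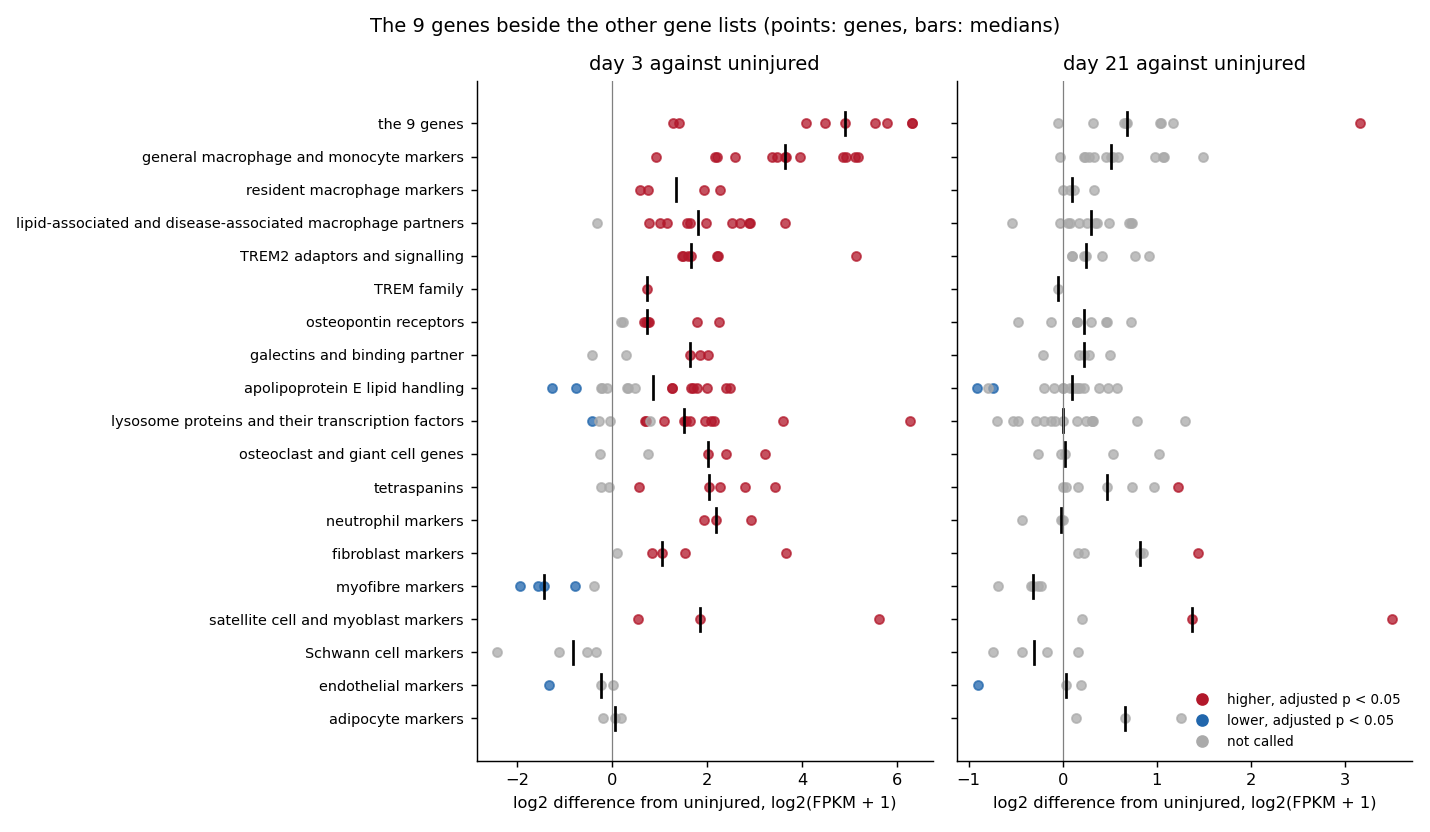
Log2 difference from uninjured muscle at day 3 (left) and day 21 (right) of the 9 genes and of each tested gene of 18 other lists, with list medians as bars, genes called higher in red, called lower in blue and not called in grey. At day 21 Lgals3 (3.16) stands apart from the other 8 genes of its row on this scale, and the other point past 3 is Myog (3.499). The gap depends on the scale. With voom weights on the reads, the day 21 differences were 3.94 for Lgals3, 2.91 for Gpnmb and 2.24 for Trem2.

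General macrophage and monocyte markers were also higher after injury, with a median log2 difference of 3.64 at day 3 and 0.52 at day 21. Not all of the 9 genes kept to that course. Cd9 (1.29) and Lyz1 (1.40) differed less at day 3, and Lgals3 (3.16) differed more at day 21. On days 3, 7, 14 and 21 the calls numbered 13, 12, 3 and 0 of 13, all higher, and none of the markers was at 0 in all samples. Without both replicates 5, 8 were called on day 14 and 2 on day 21 (C1qa and C1qc). Their summed level was 19.2 to 28.1 FPKM in uninjured muscle. It lay between 387.5 and 1283 FPKM on day 3 (lowest in replicate 5) and between 56.7 and 1311 on day 7 (highest in replicate 5). On day 14 the range was 43.3 to 113 FPKM, and on day 21 it was 37.1 to 62.8. C1qb, a complement gene of tissue macrophages, led at day 3 with 5.18 (SE 0.55, adjusted p = 2.7e-07) and C1qa at day 21 with 1.49 (SE 0.50, adjusted p = 0.093), while Mertk was the lowest at both, at 0.92 (SE 0.21, adjusted p = 0.00096) and -0.029 (SE 0.21). Adgre1, encoding F4/80, differed by 3.36 (SE 0.47, adjusted p = 6.8e-06) at day 3 and 0.33 (SE 0.47, adjusted p = 0.74) at day 21. Csf1r, encoding the receptor for colony-stimulating factor, differed by 3.64 (SE 0.45, adjusted p = 1.9e-06) and 0.59 (SE 0.45, adjusted p = 0.50).

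Divided by that marker sum, the 9 genes had different courses. Lgals3 was 0.03585 to 0.1055 of the sum in uninjured muscle, 0.117 to 0.298 on day 3 and 0.138 to 0.229 on day 7. On day 14 it lay between 0.3602 and 0.536, and on day 21 between 0.229 and 0.678. Apoe varied least against the sum, with medians of 1.69, 1.33, 1.89, 1.77 and 1.66 in uninjured muscle and at days 3, 7, 14 and 21. Cd9 fell from a median of 0.59 in uninjured muscle to 0.0307 at day 3 and stood at 0.338 at day 21. Trem2 had medians of 0.00616, 0.0252, 0.0181, 0.0144 and 0.0103, and Spp1 of 0.140, 0.435, 0.148, 0.094 and 0.0283. The medians of Gpnmb were 0.0059, 0.045, 0.0197, 0.0143 and 0.0165, those of Cd68 0.0539, 0.156, 0.107, 0.128 and 0.0882, and those of Lyz2 0.736, 1.34, 1.025, 0.784 and 0.6535. These 5 genes had their highest median at day 3. Lyz1 had its lowest then, with medians of 0.0424, 0.00508, 0.00695, 0.0157 and 0.0591. How far a change in the number of macrophages contributes to the levels was not tested.

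Resident macrophage markers were called higher for 4 of 4 tested genes at day 3, 2 at day 7 and 0 at days 14 and 21. The counts were 3 at day 7 and 1 at day 14 without both replicates 5. Mrc1, the mannose receptor gene, led at day 3 with 2.26 (SE 0.31, adjusted p = 4.3e-06) and at day 21 with 0.33 (SE 0.31), and the smallest were Lyve1 at day 3, at 0.58 (SE 0.24, adjusted p = 0.0498), and Folr2 at day 21, at 0.0013 (SE 0.43). Their summed level was 1.35 to 2.72 FPKM in uninjured muscle, 6.31 to 18.4 at day 3 and 1.32 to 3.06 at day 21.

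Neutrophils also hold Lyz2, and their markers were uneven. Ly6g, Mpo, Elane, Camp, Ltf and Cxcr2, 6 of the 10 neutrophil genes, stayed under 0.5 FPKM in every sample. All 3 tested neutrophil genes passed as higher on day 3, 2 on day 7 (1 without both replicates 5, S100a8) and 0 later. S100a8 led with 2.92 (SE 0.60, adjusted p = 0.00037) at day 3, S100a9 was lowest at day 21 at -0.43 (SE 0.58), and Csf3r stood at 1.93 (SE 0.38, adjusted p = 0.00026) at day 3 and at 0.0029 (SE 0.38) at day 21. The summed level was 0.456 to 4.31 FPKM in uninjured muscle, between 20.3 and 38.1 on day 3 and between 2.19 and 99.0 on day 7, with the highest value in replicate 5. S100a8 and Lyz2 were both high at day 3, and the part of neutrophils in the Lyz2 level was not tested.

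Other cell types moved too. Fibroblast markers were called higher for 4 of 5 genes at days 3, 7 and 14 and 1 at day 21, Col1a1 at 3.66 (SE 0.39, adjusted p = 2.7e-07) at day 3 and 1.44 (SE 0.39, adjusted p = 0.039, not called with TPM) at day 21, with Dcn the lowest at 0.10 (SE 0.27) and 0.17 (SE 0.27). Their summed level was 46.8 to 114 FPKM in uninjured muscle and 106 to 168 at day 21. Myofibre markers gave 4, 3, 1 and 0 genes called lower, of 5, on days 3, 7, 14 and 21, and without both replicates 5 none on day 7. Myh4, a fast myosin gene, stood at -1.94 (SE 0.43, adjusted p = 0.0008) at day 3 and Myh1 at -0.39 (SE 0.32), and at day 21 the extremes were Ckm at -0.69 (SE 0.33) and Acta1 at -0.24 (SE 0.31).

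Among 3 satellite cell and myoblast markers, Myog and Myod1 were called higher at every time, and Pax7 at day 3. Myog was one of the 3 nearest genes to Lgals3 in course, at a distance of 0.65 log2 units. Between days 7 and 14 its difference went from 3.27 to 4.35, and that of Lgals3 from 4.19 to 3.83. Myog differed by 5.63 (SE 0.785, adjusted p = 6.3e-06) at day 3 and 3.499 (SE 0.785, adjusted p = 0.015, not called with TPM) at day 21, and Pax7 by 0.54 (SE 0.16, adjusted p = 0.0085) and 0.21 (SE 0.16). The summed level of the 3 genes was 16.03 to 24.4 FPKM in uninjured muscle, 72.0 to 292 at day 3 and 39.1 to 117 at day 21. Whether myoblasts or fibres contribute to the Lgals3 level was not tested.

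Endothelial, Schwann cell and adipocyte markers gave 0 genes called higher at day 3. Among 3 endothelial genes Kdr, a growth factor receptor gene, was called lower at each time, at -1.33 (SE 0.20, adjusted p = 1.9e-05) at day 3 and -0.90 (SE 0.20, adjusted p = 0.015) at day 21, and Pecam1 was the highest, at 0.03 (SE 0.23) and 0.20 (SE 0.23). None of 4 Schwann cell genes was called by limma at any time, and 1 was past an unadjusted p of 0.05 at day 3. The highest of them at day 3 was Sox10, at -0.34 (SE 0.41). Their summed level was 777 FPKM in day 7 replicate 6, the library with the highest Cd9 and Lyz1 share of its group, against 2.18 to 91.8 in the other day 7 samples. The 3 adipocyte genes were called at day 7 alone. Cfd was the lowest of them at day 3, at -0.19 (SE 0.91), and the highest at day 21, at 1.26 (SE 0.91), while Adipoq was the highest at day 3, at 0.18 (SE 0.60), and Plin1 the lowest at day 21, at 0.14 (SE 0.31).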

How the data were processed

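PolyA RNA of 27 tibialis anterior samples was sequenced from libraries that do not keep the strand. According to the submitters' processing notes, reads were aligned with HISAT2 2.0.5 and counted with featureCounts 1.5.0-p3. The genome build was not given in the sources used here, and 54409 of the 54532 genes were found in GENCODE M21 (GRCm38), 98.3% of them at the same coordinates. The authors deposited 1 table of FPKM values with gene lengths. FPKM times length gave whole reads for 100% of values (tolerance 0.05 reads). The FPKM denominator was 0.747 to 1.48 times a sample's own total, so the deposited values carry a scaling beyond the total of reads. The mean ratio was 0.782 in uninjured muscle and 1.25, 1.18, 1.04 and 0.897 on days 3, 7, 14 and 21. The scaling thus differs between the groups compared. The library totals were 14376395 to 24436763 reads.

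The 9 genes, the other lists and the tests were chosen with earlier results of these data known. Genes with at least 0.5 FPKM in at least 5 samples (14630) were fitted as log2(FPKM + 1) with limma 3.58.1 in R 4.3.3, with all 27 samples in 1 model with an intensity trend and 7 comparisons, and p-values were adjusted by Benjamini-Hochberg. The fit was tested on simulated data. Named genes of a list are those with the highest and lowest difference at day 3 and day 21 together with fixed genes (Cd44, Lgals3bp, Tyrobp, Adgre1, Csf1r, S100a8), and those named as the only genes called were chosen after their values were seen. Groups came from the labels. Replicate numbers were not used to pair the samples in the main fit. In 51 pairs of samples with the same number, the correlation of deviations from the group means ran from -0.521 to 0.566 with a median of -0.0032, and 15 were over 0.1. Pairs with different numbers were not compared, so these values cannot show whether the numbers pair samples. In all, 41 alternative settings were run. Promoter windows came from RefSeq (GRCm38.p6) and the lysozyme sequences from GENCODE, aligned with Biopython 1.88. Protein sequences were not used here. A few genes that the naming rule would give are not reported here.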

Additional observations from a re-analysis of the deposited data

Results flagged for a closer look

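In 8 of 45 sets of a gene and a group, the highest or lowest sample lay far from the rest by Dixon's 95% criterion. Its rate of about 1 in 20 assumes normal values and separate sets. These sets hold FPKM values of 9 genes in the same 27 libraries, so the count is not set against that rate. In 6 of the 8 sets the sample was day 7 replicate 5, the highest of its group for Spp1 (493 FPKM), Lgals3 (300.4 FPKM), Lyz2 (1682 FPKM), Trem2 (34.1 FPKM), Gpnmb (48.3 FPKM) and Cd68 (226 FPKM). The same library held the highest macrophage marker sum (1311 FPKM) and neutrophil marker sum (99.0 FPKM) of day 7. The other 2 sets were of Cd9, which was lowest in day 3 replicate 2 (19.8 FPKM) and highest in day 7 replicate 6 (59.2 FPKM). Day 7 replicate 6 also held a Schwann cell marker sum of 777 FPKM, against 2.18 to 91.8 in the rest of day 7. What sets these libraries apart was not tested.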

How the results depend on the processing

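Of the log2 differences of the 9 genes over 7 comparisons and 41 alternatives, 2517 kept direction and call, 16 lost the call, 37 gained one and 13 changed sign. Of the alternatives, 27 left out 1 sample. Where that sample was in neither group compared, the difference could not change, only its call. The same holds for the fits without trend, without a filter and with the 2 groups alone. The directions kept there were fixed in advance and are no measure of stability. The sign changed for Spp1 at day 21 (pseudocount 0.1, 0.091; TPM, 0.13; own total of reads, 0.074; voom weights, 0.073; leaving out 1 sample, -0.35 to 0.19), Lgals3 at day 14 against day 7 (0.19 without both replicates 5; leaving out 1 sample, -0.70 to 0.19), Lyz1 at day 14 (-0.019 with quantile normalization) and Cd9 at day 14 against day 7 (leaving out 1 sample, -0.28 to 0.073). The number of the 9 genes called at day 14 was 3 without a filter, where more genes are tested (679 of 54532 called higher). At day 21 it was 2 with a replicate block by sample letter (558 of 14630) and 5 with the 2 groups alone (757 of 14630). At day 7 against day 3 it was 8 without both replicates 5 and 0 to 7 leaving out 1 sample (7 without day 3 replicate 5 or day 7 replicate 5), and at day 14 against day 7 it was 0 to 3 (3 without day 7 replicate 6). With the replicate number as a replicate block the counts were 9, 8, 5, 1, 0, 0 and 0, as without it. Of the 119 other genes, those called lower were 4 (TPM) and 5 (own total) at day 3. At day 7 they were 3 (no filter), 4 (quantile), 2 (TPM), 2 (own total), 3 (the 2 groups alone) and 3 to 10 (leaving out 1 sample). At day 14 they were 4 (quantile), 1 (TPM), 1 (own total) and 11 (the 2 groups alone), and at day 21 they were 1 (no filter), 0 (TPM), 0 (own total) and 8 (the 2 groups alone). Those called higher at day 14 were 14 (no filter), 48 (the 2 groups alone) and 18 to 40 (leaving out 1 sample). At day 21 they were 1 (no filter), 0 (TPM), 2 (own total), 11 (letter block), 28 (the 2 groups alone), 7 (without both replicates 5) and 2 to 6 (leaving out 1 sample). Without both replicates 5, 6 were called higher and 69 lower at day 7 against day 3, and 1 lower at day 14 against day 7. Leaving out 1 sample gave 0 to 4 and 0 to 63, and 0 to 1 higher and 0 to 8 lower. The cause was not tested. TPM and own totals moved the median of all genes at day 3 by 0.62 and 0.40 and quantile normalization by -0.12, with 2774 called higher and 3734 lower under the last. Uninjured levels of Trem2 (0 to 14 reads) and Gpnmb (3 to 28 reads) limit their folds.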
